A study of Mus musculus with 20 samples.

Results

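The 44 genes described here encode the mTORC1 kinase complex, the proteins that feed growth factor, stress and amino acid signals into it, and its best known effectors. The rule lists them by name from the pathway and uses no measured value, although it was drawn up with earlier results of these data known. Each name was found once in the table. Of the 44, 42 reached a value of 1 or more in 5 or more of the 20 libraries and were tested, among 10890 of 37748 entries in all that passed. Rragd and Sesn3 did not pass and are given below as levels only. Castor1 reached 1 in 15 of 20 libraries, all 10 after PHZ and 5 of 10 after PBS.

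Gene expression had been measured by RNA sequencing in CFU-E, the committed red cell progenitors, sorted from mouse bone marrow. P95H stands here for Mx1-Cre Srsf2 P95H/+ mice, which carry 1 mutant copy of the splicing factor gene Srsf2, and Mx1-Cre for mice that carry the Cre transgene without the mutant allele. Mice of both genotypes were injected under the skin on days 0 and 1 with phenylhydrazine (PHZ, 30 mg/kg), which lyses red cells, or with PBS, and CFU-E were taken on day 4. The 4 groups were P95H PHZ, P95H PBS, Mx1-Cre PHZ and Mx1-Cre PBS, with 5 libraries each. Every library name ends in its own code, which is taken here to stand for 1 animal. All 4 groups therefore share the Mx1-Cre transgene, in which an interferon-inducible promoter drives Cre in blood cells and in other tissues. Ages, and how and when Cre was induced, were not given in the sources used here.

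As background, mTORC1 is a protein kinase complex on the lysosome surface that switches cells towards protein synthesis and growth when both growth factors and amino acids are present. Growth factors act through AKT and the TSC complex, which holds the GTPase RHEB inactive. Amino acids act through the Rag GTPases, which bring mTORC1 to the lysosome, where RHEB can turn it on. In mouse red cell precursors, mTORC1 activity affects the size and number of red cells. The activity is set mainly by binding and phosphorylation of proteins. The levels given here are those of the RNA for its parts, and measure neither protein amounts nor the activity itself. The study's title names mTORC1 signalling, which makes the levels of these genes in P95H and Mx1-Cre CFU-E a comparison that the design implies.

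Promoter sequences are shown for Castor1, the gene with the largest PHZ difference among the 42, and for the Rag GTPase genes that passed the filter, which share a role and of which Rragb and Rragc, but not Rraga, hold the motif marked. Each line gives the 250 bases before the RefSeq start of the gene on the GRCm38.p6 build, on the plus strand, which is the strand of all 4 genes. The windows are chr11:4217975-4218224 for Castor1, chr4:86575423-86575672 for Rraga, chrX:153139708-153139957 for Rragb and chr4:123917183-123917432 for Rragc. Capitals mark CACGTG, the E-box bound by the MiT/TFE and MYC families among other factors, which reads the same on both strands.
Castor1: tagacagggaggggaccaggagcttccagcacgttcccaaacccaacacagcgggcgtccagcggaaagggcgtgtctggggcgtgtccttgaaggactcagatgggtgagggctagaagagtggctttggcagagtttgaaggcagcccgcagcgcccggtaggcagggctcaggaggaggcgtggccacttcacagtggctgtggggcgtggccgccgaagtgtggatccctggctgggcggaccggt
Rraga: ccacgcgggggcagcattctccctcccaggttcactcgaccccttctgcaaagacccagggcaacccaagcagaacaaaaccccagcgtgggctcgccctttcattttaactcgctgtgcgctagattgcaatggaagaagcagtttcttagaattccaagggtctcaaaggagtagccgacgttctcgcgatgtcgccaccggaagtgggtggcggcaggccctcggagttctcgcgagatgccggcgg
Rragb: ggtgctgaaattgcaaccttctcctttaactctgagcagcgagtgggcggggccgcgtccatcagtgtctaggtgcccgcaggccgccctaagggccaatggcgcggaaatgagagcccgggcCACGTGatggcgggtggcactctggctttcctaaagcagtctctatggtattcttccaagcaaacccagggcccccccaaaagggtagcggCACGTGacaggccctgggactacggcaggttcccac
Rragc: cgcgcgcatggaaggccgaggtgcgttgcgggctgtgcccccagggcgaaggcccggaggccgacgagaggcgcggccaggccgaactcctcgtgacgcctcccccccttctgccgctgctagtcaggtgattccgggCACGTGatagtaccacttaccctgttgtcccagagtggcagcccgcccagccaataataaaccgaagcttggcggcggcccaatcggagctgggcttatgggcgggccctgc
Rragb holds the E-box with its first base at -127 and again at -36, counted back from the start of the gene, and Rragc holds it at -112. These letters are not in the Castor1 and Rraga windows. RefSeq promoter windows were matched for 38 of the 44 genes, and 7 of the 38 (18.4%) hold the E-box: Fnip1, Lamtor1, Lamtor4, Rheb, Rragb, Rragc and Tbc1d7. Over all 27025 genes with such windows, counted in the same way, the share was 6.86%. G and C bases made up 65.2%, 59.2%, 61.6% and 68.0% of the Castor1, Rraga, Rragb and Rragc windows. Over all windows the median was 52.4%. The shares of genes with a motif were not matched for base content or for expression in CFU-E. The ATF4 composite element TGATGNAA was found on either strand in 2 of 38 (5.26%; Akt2 and Lamtor4), against 3.91% of all genes with windows. GATA sites, AGATAA or TGATAA on either strand, were in 6 of 38 (15.8%), against 18.8% of all genes with windows. A gene with several RefSeq starts counts once if any of its windows holds the motif. The matches describe letters only and were not related to binding.

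The values are TPM-like, which means that they give the RNA molecules of a gene as a share of all RNA molecules, after scaling for gene length, times 1 factor per library. Their sums per library ran from 924763 to 1085050, and the number of reads behind each value is unknown. All 12 CFU-E markers, among them Kit and Eng (CD105) of the sorting gate, passed the filter, as did 3 of the 6 markers of cells sorted out. Srsf2 averaged 586 ± 20.2 in P95H PHZ, 623 ± 49.3 in P95H PBS, 685 ± 35.6 in Mx1-Cre PHZ and 679 ± 31.9 in Mx1-Cre PBS (SD, n = 5 each), which does not check the mutation. Fyn, the kinase in the study's title, averaged between 6.48 and 6.69 in the 4 groups.

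Most of these genes were well expressed in CFU-E. Over all 20 libraries, 12 of the 44 averaged more than 50 and 7 averaged less than 10, with a median of 26.3. The order that follows compares TPM-like levels between genes, and holds only as far as the values are scaled for length. Sec13, which serves GATOR2, the nuclear pore and secretory vesicle coats, was first (mean 153, range 139 to 168). The translation repressors Eif4ebp1 (mean 151) and Eif4ebp2 (mean 125), the kinase gene Akt1 (mean 124) and the Ragulator subunit gene Lamtor2 (mean 111) followed. Mtor, the kinase itself, averaged 15.1, and its scaffold Rptor 19.1. At the low end were Ddit4 (mean 4.46), Deptor (mean 2.63) and Castor1 (mean 2.43). For all 43 pairs of neighbours in this order the ranges over the 20 libraries, PHZ and PBS together, overlapped.

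**Figure D1:**
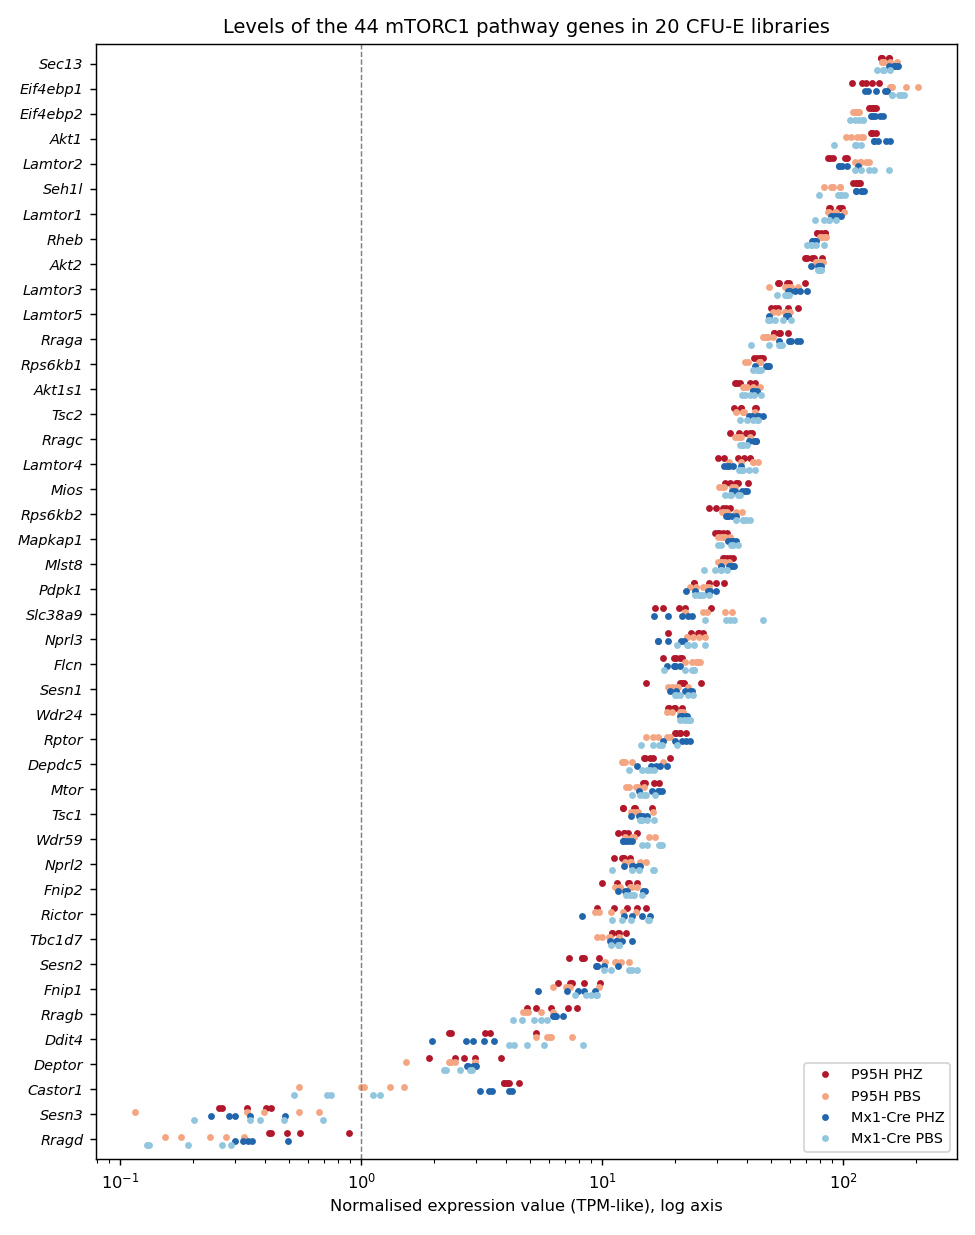
TPM-like values of the 44 genes (rows, ordered by mean) in the 20 libraries (points, coloured by group) on a log axis, with a dashed line at the filter value of 1. Rragd and Sesn3 lie below 1 in every library, and the Castor1 points split into PHZ libraries above 3 and PBS libraries around 1.

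The genes below the filter differ in role. Rragd, a Rag GTPase that pairs with RAGA or RAGB in place of RAGC, had values of 0.558, 0.491, 0.414, 0.423 and 0.893 in P95H PHZ libraries, against 0.153, 0.325, 0.276, 0.178 and 0.235 in P95H PBS libraries. In Mx1-Cre mice its values were 0.495, 0.337, 0.299, 0.352 and 0.323 after PHZ, against 0.132, 0.191, 0.287, 0.130 and 0.264 after PBS. Every PHZ library lay above every PBS library of the same genotype, at levels too low to be tested. Sesn3, a stress-induced sestrin, stayed between 0.115 and 0.691 in all 20 libraries, with overlapping groups.

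The comparison of PHZ with PBS within each genotype asks which parts of the pathway CFU-E change during recovery from haemolysis. In both genotypes the RNA for the arginine sensor gene Castor1 and for Akt1, Seh1l, Rptor and Eif4ebp2 was higher after PHZ. The RNA for the stress-induced inhibitor gene Ddit4, the lysosomal arginine sensor gene Slc38a9, the leucine sensor gene Sesn2, Lamtor2 and Eif4ebp1 was lower in both. These 10 genes were called in both genotypes, 5 in each direction. Only 1 more passed the threshold in P95H alone (Flcn), and 8 more in Mx1-Cre alone, which by itself does not show that the genotypes differ. How many of all genes were called in both genotypes, or in 1 alone, was not counted. The 10, 1 and 8 genes therefore have no share to be set against.

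A gene is called where its p from limma, adjusted over all 10890 genes, is under 0.05, and fold changes are differences on the log2(value + 1) scale, on which low genes show smaller changes than in plain ratios. In P95H mice 11 of the 42 genes were called (26.2%), against 30.2% of all genes tested. Of these, 5 were higher (11.9%, against 12.6% of all genes) and 6 were lower (14.3%, against 17.7%). In Mx1-Cre mice 18 of 42 were called (42.9%), against 31.9% of all genes. There, 10 were higher (23.8%, against 17.0%) and 8 lower (19.0%, against 14.9%). The median log2 fold change of the 42 genes was 0.02 in P95H, where that of all genes was -0.02, and 0.04 in Mx1-Cre, where that of all genes was -0.00. The shares of calls in P95H lay near those of all genes tested. In P95H 11 of 42 genes (26.2%) had no overlap between PHZ and PBS libraries, against 17.6% of all genes. Of these, 6 were higher (14.3%, against 7.59%) and 5 lower (11.9%, against 10%). In Mx1-Cre it was likewise 11 (26.2%, against 22.4%), 6 higher (14.3%, against 12.6%) and 5 lower (11.9%, against 9.82%). Calls went in both directions in either genotype. The split between higher and lower depended on the scaling of the libraries. With the authors' scaling factor divided out, which raised the median of all genes by 0.10 in P95H, 11 genes were higher and 4 lower in P95H, and 11 higher and 5 lower in Mx1-Cre. Over all genes the split in P95H was 1371 higher and 1923 lower, and 2575 higher and 1117 lower with that factor divided out. In Mx1-Cre it was 1856 higher and 1618 lower, and 2232 higher and 1219 lower with the factor divided out. Without Mx1-Cre PHZ replicate 3 the number of calls in Mx1-Cre was 11.

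Markers of other blood cells moved with PHZ. The 18 granulocyte and monocyte markers, 16 of them past the filter and none at 0 in every library, summed to 162 to 606 in P95H PHZ, against 572 to 2512 in P95H PBS. In Mx1-Cre they summed to 153 to 1093 after PHZ, against 461 to 969 after PBS. All 16 were called lower in P95H, with a median log2 fold change of -1.85. In Mx1-Cre 1 was called lower and 15 were not called, with a median of -0.92. None of the 16 was called for a difference between both PHZ effects. The 12 lymphoid markers, 2 past the filter, summed to 0.470 to 1.93 in P95H PHZ against 6.09 to 25.7 in P95H PBS, and to 0.549 to 1.79 in Mx1-Cre PHZ against 4.03 to 8.37 in Mx1-Cre PBS. The 8 megakaryocyte markers, 3 past the filter, summed to 8.96 to 14.1 in P95H PHZ against 14.8 to 17.9 in P95H PBS, and to 7.36 to 10.4 in Mx1-Cre PHZ against 13.3 to 17.0 in Mx1-Cre PBS. Of 10 basophil and mast cell markers 2 passed the filter and Tpsb2 was listed at 0 in every library, and of 8 macrophage markers 1 passed. The sum of the CFU-E markers was 4636 to 5361 in P95H PHZ, 4679 to 6144 in P95H PBS, 5472 to 6814 in Mx1-Cre PHZ and 6128 to 6759 in Mx1-Cre PBS. Of the 12 CFU-E markers, 9 were called after PHZ in P95H (3 higher and 6 lower) and 6 in Mx1-Cre (3 higher and 3 lower). Kit, a receptor of the sorting gate, fell by 0.77 (SE of 0.155, adjusted p = 0.000962) in P95H and fell by 0.80 (SE of 0.155, adjusted p = 0.00073) in Mx1-Cre. The Kit call in P95H ended with the granulocyte and monocyte marker mean as a covariate (adjusted p = 0.0632), with a log2 fold change of -0.68 under the marker covariate. Tfrc, the transferrin receptor, rose by 0.75 (SE of 0.116, adjusted p = 5.67e-05) in P95H and rose by 0.89 (SE of 0.116, adjusted p = 9.09e-06) in Mx1-Cre. Of the 3 tested markers of cells sorted out, 2 fell in P95H (Fcgr3 and Ptprc) and 2 in Mx1-Cre (Itga2b and Ptprc). With the granulocyte and monocyte marker mean as a covariate, neither call in P95H held (log2 fold change 0.23, adjusted p = 0.52 for Fcgr3, and -0.05, adjusted p = 0.893 for Ptprc). The part of such cells in the differences below was not tested, and in bulk samples fewer cells of a type and less RNA per cell cannot be told apart. With the granulocyte and monocyte marker mean as a covariate, the calls in P95H came to 3 (Castor1, Eif4ebp2 and Sesn2) and those in Mx1-Cre to 12. The P95H marker means ran from 2.35 to 3.76 on the log2 scale after PHZ, and from 3.78 to 5.69 after PBS, without overlap. This covariate can therefore not be fully separated from PHZ in P95H. Why calls there ended with it was not tested. Without P95H PBS replicates 4 and 5 together, whose marker means were the highest at 5.56 and 5.69 on the log2 scale, 8 genes were called in P95H. All log2 directions of pathway genes given below as rose or fell kept their sign under every alternative run, including each scaling.

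**Figure D2:**
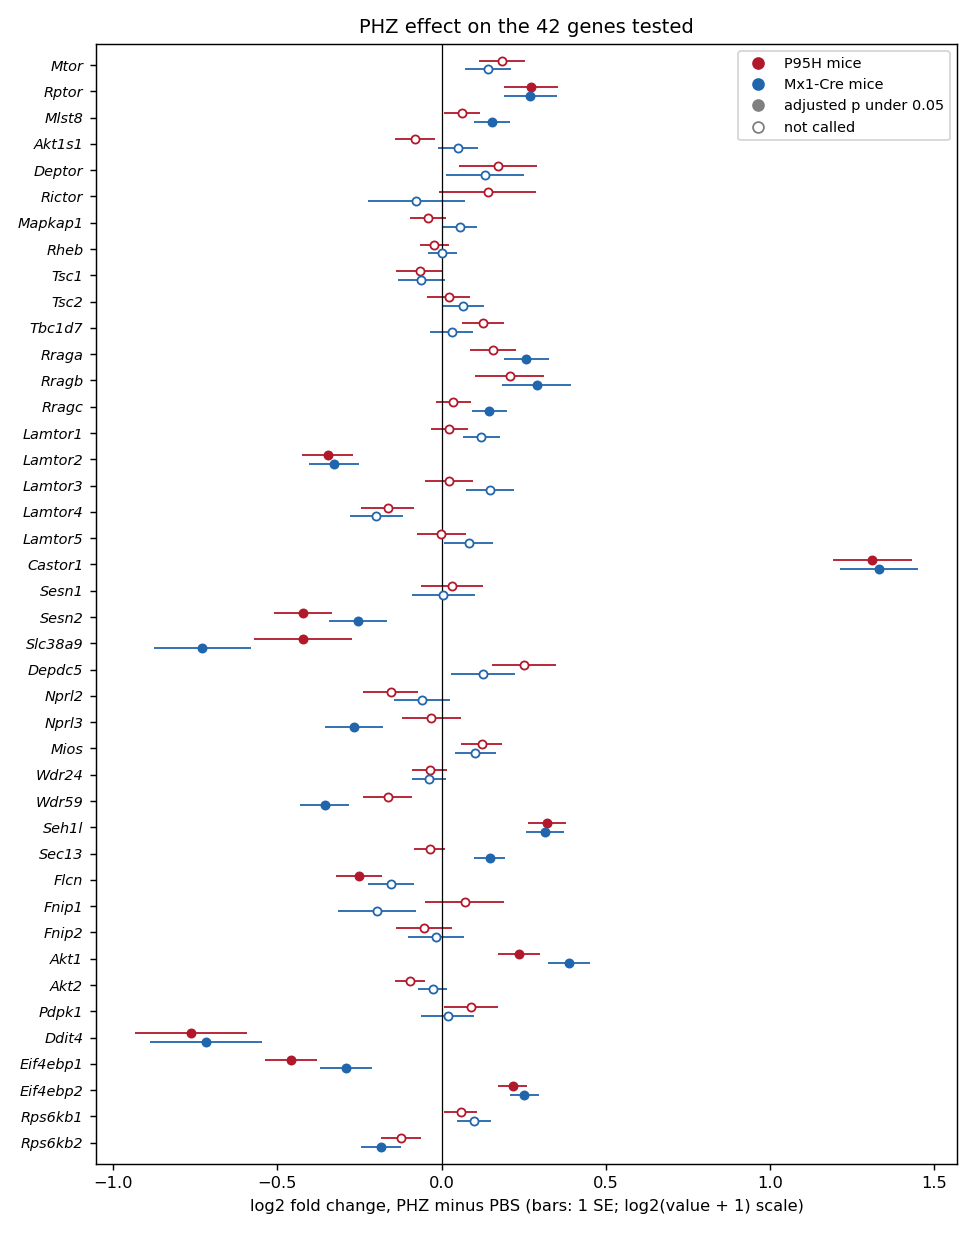
Log2 fold changes, PHZ minus PBS on the log2(value + 1) scale, with bars of 1 SE, for the 42 genes tested in P95H mice and in Mx1-Cre mice; filled points have an adjusted p under 0.05. Castor1 lies far to the right of all others at 1.31 in P95H and 1.33 in Mx1-Cre. Farthest to the left lie Ddit4 in P95H, and Slc38a9 and Ddit4 in Mx1-Cre.

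Among the amino acid sensors, PHZ was accompanied by more Castor1 RNA and by less Slc38a9 and Sesn2 RNA. CASTOR1 binds arginine in the cytosol, and without arginine it holds GATOR2 and so mTORC1 in check. Castor1 (ENSMUSG00000020424, chromosome 11, 4218225 to 4222409, plus strand; GRCm38, as all positions here) had values of 3.91, 3.90, 4.53, 4.12 and 4.02 in P95H PHZ libraries, against 0.997, 1.02, 1.32, 1.50 and 0.553 in P95H PBS libraries. In Mx1-Cre mice the values were 3.38, 3.12, 4.20, 3.49 and 4.12 after PHZ, against 1.19, 1.12, 0.749, 0.723 and 0.527 after PBS. All 10 PHZ libraries lay above all 10 PBS libraries, with no value between 1.50 and 3.12. Castor1 rose by 1.31 (SE of 0.119, adjusted p = 6.76e-08) in P95H and rose by 1.33 (SE of 0.119, adjusted p = 5.76e-08) in Mx1-Cre. This was the largest change among the 42 genes in both genotypes, at a low level of RNA.

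SLC38A9 senses arginine inside the lysosome and, with it, turns mTORC1 on. Slc38a9 (ENSMUSG00000047789, chromosome 13, 112660751 to 112738749, plus strand) had values of 17.9, 16.5, 22.0, 20.9 and 28.1 in P95H PHZ libraries, against 27.2, 32.3, 22.0, 34.6 and 26.1 in P95H PBS libraries. The Mx1-Cre values were 23.5, 22.7, 18.7, 21.3 and 16.4 after PHZ, against 32.6, 33.9, 35.3, 46.3 and 26.7 after PBS. The Mx1-Cre groups did not overlap, while in P95H the PHZ library at 28.1 lay above 3 of the 5 PBS libraries. Slc38a9 fell by 0.42 (SE of 0.149, adjusted p = 0.0369) in P95H and fell by 0.73 (SE of 0.149, adjusted p = 0.00104) in Mx1-Cre. The Slc38a9 call in P95H ended with the authors' scaling factor divided out, with no filter on low values, with the granulocyte and monocyte marker mean as a covariate, with Xist as a covariate and without P95H PBS replicates 4 and 5 together (adjusted p = 0.0507 to 0.19), and also without any 1 of P95H PHZ replicates 1, 2, 3 and 4 and P95H PBS replicates 1, 2 and 4 (adjusted p = 0.0524 to 0.105), with a log2 fold change of -0.47 under the marker covariate.

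Sestrin 2 binds leucine and, without it, holds GATOR2 in check, and its gene is induced by several stresses. Sesn2 (ENSMUSG00000028893, chromosome 4, 132492032 to 132510501, minus strand) had values of 9.65, 7.30, 8.21, 8.23 and 8.41 in P95H PHZ libraries, against 11.9, 11.4, 11.3, 10.2 and 12.9 in P95H PBS libraries. In Mx1-Cre, PHZ libraries had 9.37, 11.6, 9.49, 10.2 and 9.54, against 12.9, 13.3, 14.0, 10.8 and 10.1 in PBS libraries. The P95H groups did not overlap and the Mx1-Cre groups did. Sesn2 fell by 0.42 (SE of 0.0881, adjusted p = 0.00099) in P95H and fell by 0.25 (SE of 0.0881, adjusted p = 0.0315) in Mx1-Cre. The Sesn2 call in Mx1-Cre ended with the authors' scaling factor divided out, with no filter on low values and with the granulocyte and monocyte marker mean as a covariate (adjusted p = 0.0529 to 0.0977), and also without any 1 of Mx1-Cre PHZ replicates 1, 3 and 5 and Mx1-Cre PBS replicates 1, 2 and 3 (adjusted p = 0.059 to 0.0942), with a log2 fold change of -0.28 under the marker covariate. Its relative Sesn1, a p53-responsive sestrin gene, was not called (P95H: log2 fold change 0.03, SE of 0.0957, adjusted p = 0.832).

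DDIT4, also called REDD1, is induced by hypoxia, glucocorticoids and other stresses and restrains mTORC1 through the TSC complex. Ddit4 (ENSMUSG00000020108, chromosome 10, 59949669 to 59951834, minus strand) had values of 2.35, 3.43, 2.32, 3.27 and 5.28 in P95H PHZ libraries, against 6.15, 5.32, 6.05, 5.88 and 7.48 in P95H PBS libraries. For Mx1-Cre the values were 2.73, 2.90, 1.96, 3.23 and 3.57 after PHZ, against 5.75, 4.29, 4.86, 8.33 and 4.12 after PBS. Groups of the same genotype did not overlap, although the P95H PHZ library at 5.28 came close to the PBS library at 5.32. Ddit4 fell by 0.76 (SE of 0.170, adjusted p = 0.00179) in P95H and fell by 0.72 (SE of 0.170, adjusted p = 0.00302) in Mx1-Cre. The Ddit4 call in P95H ended with the granulocyte and monocyte marker mean as a covariate (adjusted p = 0.211), with a log2 fold change of -0.48 under the marker covariate.

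AKT kinases carry the growth factor signal to the TSC complex, and PDPK1 activates them. Akt1 (ENSMUSG00000001729, chromosome 12, 112653821 to 112674884, minus strand) had values of 137, 132, 130.2, 132 and 132 in P95H PHZ libraries, against 118, 102, 121, 108 and 114 in P95H PBS libraries. After PHZ, Mx1-Cre libraries had 135, 135, 156, 139 and 151, against 111, 113, 113, 91.1 and 118 after PBS. All 10 PHZ libraries were above all 10 PBS libraries. Akt1 rose by 0.24 (SE of 0.0641, adjusted p = 0.00767) in P95H and rose by 0.39 (SE of 0.0641, adjusted p = 0.00012) in Mx1-Cre. Akt2 was not called in either genotype (P95H: log2 fold change -0.10, SE of 0.0445, adjusted p = 0.107; Mx1-Cre: log2 fold change -0.03, SE of 0.0445, adjusted p = 0.676), and neither was Pdpk1. The Akt1 call in P95H ended with the granulocyte and monocyte marker mean as a covariate (adjusted p = 0.0583), with a log2 fold change of 0.28 under the marker covariate.

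The eIF4E-binding proteins hold back cap-dependent translation until mTORC1 phosphorylates them, and their genes moved in opposite directions. Eif4ebp1 (ENSMUSG00000031490, chromosome 8, 27260329 to 27276674, plus strand) had values of 131, 124, 119.5, 141 and 108 in P95H PHZ libraries, against 160.0, 158, 157, 205 and 182 in P95H PBS libraries. Mx1-Cre libraries had 123, 127, 149, 136 and 152 after PHZ, against 178, 159.9, 169.9, 173 and 159 after PBS. All 10 PHZ libraries lay below all 10 PBS libraries. Eif4ebp1 fell by 0.46 (SE of 0.0794, adjusted p = 0.000167) in P95H and fell by 0.29 (SE of 0.0794, adjusted p = 0.00809) in Mx1-Cre. The Eif4ebp1 call in P95H ended with the granulocyte and monocyte marker mean as a covariate (adjusted p = 0.053), with a log2 fold change of -0.34 under the marker covariate. The Eif4ebp1 call in Mx1-Cre ended with the granulocyte and monocyte marker mean as a covariate (adjusted p = 0.0633), with a log2 fold change of -0.23 under the marker covariate.

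Eif4ebp2, which was not among the genes picked for values in every library and is added because of its opposite sign, averaged 132 ± 3.77 in P95H PHZ, against 114 ± 2.42 in P95H PBS. It averaged 138 ± 6.50 in Mx1-Cre PHZ, against 115 ± 5.88 in Mx1-Cre PBS (SD, n = 5 each). All 10 PHZ libraries were above all 10 PBS libraries, and Eif4ebp2 rose by 0.22 (SE of 0.0443, adjusted p = 0.000885) in P95H and rose by 0.25 (SE of 0.0443, adjusted p = 0.00022) in Mx1-Cre. The balance between both genes within a library therefore differed. The log2 ratio of Eif4ebp1 to Eif4ebp2 was -0.09 ± 0.148 in P95H PHZ and 0.59 ± 0.147 in P95H PBS, and -0.00 ± 0.108 in Mx1-Cre PHZ and 0.54 ± 0.129 in Mx1-Cre PBS (SD, n = 5 each). Eif4ebp1 was the higher of the pair in 1 of 5 P95H PHZ and 2 of 5 Mx1-Cre PHZ libraries, and in all 5 PBS libraries of either genotype. For Akt1 over Akt2 the log2 ratio was 0.83 ± 0.0621 in P95H PHZ and 0.50 ± 0.0802 in P95H PBS, and 0.86 ± 0.0794 in Mx1-Cre PHZ and 0.44 ± 0.143 in Mx1-Cre PBS, with Akt1 the higher in all 20 libraries. The ratios were not tested as such.

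**Figure D3:**
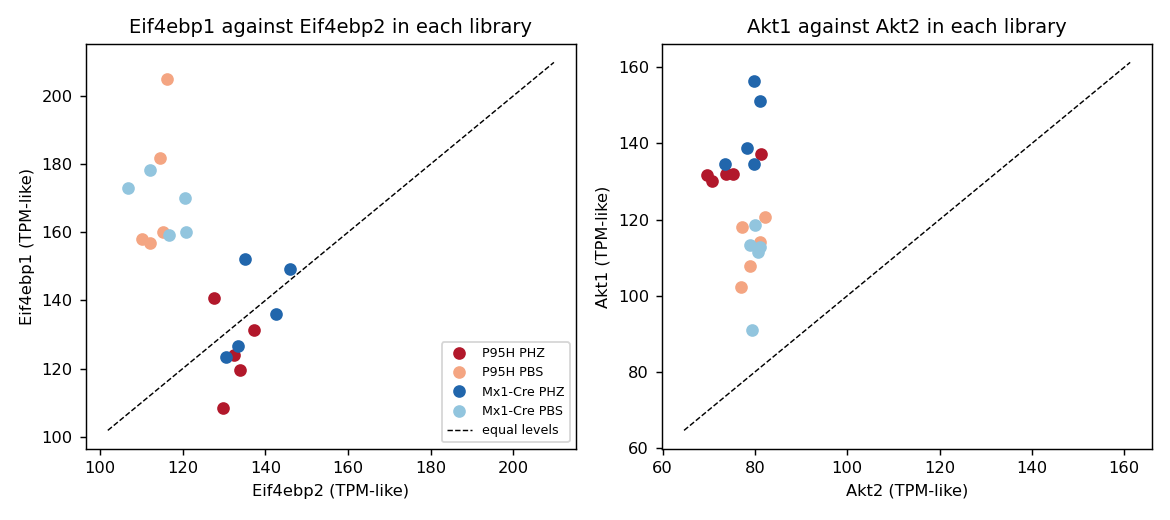
TPM-like values of Eif4ebp1 against Eif4ebp2 (left) and of Akt1 against Akt2 (right), 1 point per library coloured by group, with the dashed line of equal levels. PBS libraries lie above the line on the left, while PHZ libraries lie on both sides of it; on the right all 20 libraries lie above it, the PHZ libraries highest.

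The S6 kinases, the other effector class, phosphorylate ribosomal protein S6 and translation factors. Rps6kb1 was not called in either genotype (P95H: log2 fold change 0.06, SE of 0.0507, adjusted p = 0.421; Mx1-Cre: log2 fold change 0.10, SE of 0.0507, adjusted p = 0.145). Rps6kb2 (ENSMUSG00000024830, chromosome 19, 4153991 to 4163354, minus strand) had values of 31.7, 29.5, 27.8, 32.6 and 34.0 in P95H PHZ libraries, against 38.1, 35.8, 31.5, 32.9 and 31.9 in P95H PBS libraries. The Mx1-Cre libraries had 33.4, 33.2, 32.5, 34.4 and 35.8 after PHZ, against 38.4, 41.1, 39.4, 38.4 and 35.9 after PBS, with no overlap. Rps6kb2 fell by 0.18 (SE of 0.0607, adjusted p = 0.0243) in Mx1-Cre and was not called in P95H (log2 fold change -0.12, SE of 0.0607, adjusted p = 0.125). The Rps6kb2 call in Mx1-Cre ended with the authors' scaling factor divided out (adjusted p = 0.0817), and also without any 1 of Mx1-Cre PHZ replicate 3 and Mx1-Cre PBS replicate 2 (adjusted p = 0.0618 to 0.0619). Rps6kb2 overlaps Coro1b (mean 72.8) on the opposite strand, and whether reads were counted by strand was not given in the sources used here, so its values are uncertain.

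Within the mTORC1 complex, RNA for the scaffold RAPTOR, which brings substrates to the kinase, was higher after PHZ in both genotypes. Rptor (ENSMUSG00000025583, chromosome 11, 119602905 to 119899576, plus strand) had values of 21.0, 21.0, 22.3, 20.2 and 20.1 in P95H PHZ libraries, against 15.1, 18.5, 19.1, 16.2 and 17.0 in P95H PBS libraries. Mx1-Cre mice had 21.5, 22.2, 23.1, 20.1 and 17.8 after PHZ, against 17.7, 17.3, 20.4, 14.5 and 16.2 after PBS. The P95H groups did not overlap, while in Mx1-Cre the PBS library at 20.4 lay above 2 PHZ libraries. Rptor rose by 0.27 (SE of 0.0815, adjusted p = 0.0146) in P95H and rose by 0.27 (SE of 0.0815, adjusted p = 0.015) in Mx1-Cre. The Rptor call in P95H ended with the granulocyte and monocyte marker mean as a covariate and without P95H PBS replicates 4 and 5 together (adjusted p = 0.0876 to 0.573), with a log2 fold change of 0.11 under the marker covariate. The Rptor call in Mx1-Cre ended with the granulocyte and monocyte marker mean as a covariate (adjusted p = 0.121), and also without Mx1-Cre PBS replicate 4 (adjusted p = 0.057), with a log2 fold change of 0.19 under the marker covariate.

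Mtor, the kinase, just missed the threshold in P95H (log2 fold change 0.18, SE of 0.0702, adjusted p = 0.0516) and was not called in Mx1-Cre (log2 fold change 0.14, SE of 0.0702, adjusted p = 0.135). It averaged 15.6 ± 1.10 in P95H PHZ and 13.6 ± 0.928 in P95H PBS, and 16.4 ± 1.39 in Mx1-Cre PHZ and 14.8 ± 1.2 in Mx1-Cre PBS (SD, n = 5 each). Mlst8, a small subunit shared with mTORC2, rose by 0.15 (SE of 0.0553, adjusted p = 0.0391) in Mx1-Cre and was not called in P95H (log2 fold change 0.06, SE of 0.0553, adjusted p = 0.423). The Mlst8 call in Mx1-Cre ended with TMM factors, with no filter on low values, with the 2 groups fitted alone and with the granulocyte and monocyte marker mean as a covariate (adjusted p = 0.0512 to 0.183), and also without any 1 of Mx1-Cre PHZ replicates 1, 2, 3 and 4 and Mx1-Cre PBS replicates 3 and 4 (adjusted p = 0.0639 to 0.137), with a log2 fold change of 0.12 under the marker covariate. The inhibitory subunits Akt1s1 (PRAS40) and Deptor were not called, and neither were Rictor and Mapkap1 of mTORC2, the sister complex that phosphorylates AKT.

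The TSC complex and RHEB, through which growth factor signals reach mTORC1, showed no PHZ call: Tsc1, Tsc2, Tbc1d7 and Rheb had log2 fold changes from -0.07 to 0.13 in P95H and from -0.06 to 0.06 in Mx1-Cre. At an unadjusted p under 0.05 limma picked none of these 4 genes in either genotype. With the authors' scaling factor divided out, Tbc1d7 was called in P95H (log2 fold change 0.22, adjusted p = 0.0203).

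Among the Rag GTPases, which work as pairs of RAGA or RAGB with RAGC or RAGD, the 3 genes tested were all higher after PHZ in Mx1-Cre. Rragb (ENSMUSG00000041658, chromosome X, 153139981 to 153171943, plus strand) had values of 5.29, 6.15, 7.88, 7.18 and 4.85 in P95H PHZ libraries, against 4.83, 4.90, 6.23, 5.57 and 4.71 in P95H PBS libraries. Libraries of Mx1-Cre mice had 6.24, 6.90, 6.38, 6.43 and 6.28 after PHZ, against 5.58, 5.21, 4.28, 4.64 and 5.88 after PBS. The Mx1-Cre groups did not overlap, and the P95H groups did. Rragb rose by 0.29 (SE of 0.105, adjusted p = 0.0383) in Mx1-Cre. Rraga rose by 0.26 (SE of 0.0695, adjusted p = 0.00742) in Mx1-Cre, and Rragc rose by 0.15 (SE of 0.0534, adjusted p = 0.0417) there. In P95H the values were 0.21 (SE of 0.105, adjusted p = 0.141) for Rragb, 0.16 (SE of 0.0695, adjusted p = 0.0951) for Rraga and 0.04 (SE of 0.0534, adjusted p = 0.657) for Rragc, none past the threshold. With the authors' scaling factor divided out, Rraga (log2 fold change 0.26, adjusted p = 0.0142) and Rragb (log2 fold change 0.30, adjusted p = 0.0445) were called in P95H as well. So were Rragb without P95H PHZ replicate 5 (adjusted p = 0.0411) and Rraga without Mx1-Cre PBS replicate 4 (adjusted p = 0.0361). The difference between the genotypes was tested and not called for any of them (adjusted p = 0.816 for Rraga, 0.901 for Rragb and 0.798 for Rragc). The Rragb call in Mx1-Cre ended with no filter on low values, with the granulocyte and monocyte marker mean as a covariate and with the replicate number as a block (adjusted p = 0.0512 to 0.0997), and also without any 1 of Mx1-Cre PHZ replicates 1, 2, 3 and 4 and Mx1-Cre PBS replicates 2, 3 and 4 (adjusted p = 0.0529 to 0.107), with a log2 fold change of 0.28 under the marker covariate. The Rragc call in Mx1-Cre ended under quantile normalization, with no filter on low values and without P95H PBS replicates 4 and 5 together (adjusted p = 0.0505 to 0.0631), and also without any 1 of Mx1-Cre PHZ replicates 1, 3, 4 and 5 and Mx1-Cre PBS replicates 1, 2, 4 and 5 (adjusted p = 0.0612 to 0.0885).

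Ragulator, the complex of 5 LAMTOR proteins that anchors the Rag GTPases to the lysosome, had 1 subunit gene called. Lamtor2 (ENSMUSG00000028062, chromosome 3, 88549819 to 88553074, minus strand) had values of 103, 86.4, 88.1, 102 and 90.4 in P95H PHZ libraries, against 117, 111, 118, 124 and 128 in P95H PBS libraries. Its Mx1-Cre values were 104, 96.3, 96.4, 98.9 and 116 after PHZ, against 128, 112, 118, 155 and 134 after PBS. In P95H the groups did not overlap, and in Mx1-Cre a single PHZ library at 116 lay within the PBS range. Lamtor2 fell by 0.35 (SE of 0.0764, adjusted p = 0.00157) in P95H and fell by 0.33 (SE of 0.0764, adjusted p = 0.00256) in Mx1-Cre. Lamtor1, Lamtor3, Lamtor4 and Lamtor5 were not called, with log2 fold changes from -0.16 to 0.02 in P95H and from -0.20 to 0.15 in Mx1-Cre. Lamtor4 passed the threshold in Mx1-Cre, lower after PHZ, under several alternatives, among them TMM factors (adjusted p = 0.0493) and library weights (adjusted p = 0.0115). In P95H it passed without PHZ replicate 4 (adjusted p = 0.0498) or PBS replicate 2 (adjusted p = 0.0396). Higher in Mx1-Cre were Lamtor1 with the authors' scaling factor divided out (adjusted p = 0.0287) and Lamtor3 with the replicate block (adjusted p = 0.0327). The Lamtor2 call in P95H ended with the granulocyte and monocyte marker mean as a covariate (adjusted p = 0.292), with a log2 fold change of -0.17 under the marker covariate.

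GATOR2 relays the sensors' signal by blocking GATOR1, and its members did not move together. Seh1l (ENSMUSG00000079614), which is also a nuclear pore gene, had values of 113, 114, 116, 117 and 109.8 in P95H PHZ libraries, against 96.6, 90.7, 96.7, 83.4 and 89.1 in P95H PBS libraries. In Mx1-Cre mice they were 119, 120.1, 122, 113 and 113 after PHZ, against 98.3, 102, 94.9, 79.5 and 97.6 after PBS. All 10 PHZ libraries lay above all 10 PBS libraries. Seh1l rose by 0.32 (SE of 0.0578, adjusted p = 0.000254) in P95H and rose by 0.31 (SE of 0.0578, adjusted p = 0.000331) in Mx1-Cre. The Seh1l call in P95H ended with the granulocyte and monocyte marker mean as a covariate (adjusted p = 0.0777), with a log2 fold change of 0.22 under the marker covariate. Sec13, which also serves the nuclear pore, rose by 0.15 (SE of 0.0477, adjusted p = 0.0232) in Mx1-Cre and was not called in P95H (log2 fold change -0.04, SE of 0.0477, adjusted p = 0.603). The Sec13 call in Mx1-Cre ended under quantile normalization and with the granulocyte and monocyte marker mean as a covariate (adjusted p = 0.0689 to 0.0702), and also without any 1 of Mx1-Cre PHZ replicate 3 and Mx1-Cre PBS replicate 4 (adjusted p = 0.0551 to 0.0662), with a log2 fold change of 0.14 under the marker covariate.

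Wdr59 (ENSMUSG00000031959, chromosome 8, 111448797 to 111522092, minus strand), a GATOR2 subunit with no pore role, had values of 12.3, 11.6, 12.8, 12.3 and 13.9 in P95H PHZ libraries, against 12.4, 15.6, 13.6, 16.6 and 13.3 in P95H PBS libraries. The values in Mx1-Cre were 13.3, 12.2, 12.2, 12.9 and 12.6 after PHZ, against 17.2, 15.4, 17.6, 17.7 and 14.6 after PBS. The Mx1-Cre groups lay apart, with every PHZ library lower, and the P95H groups overlapped. Wdr59 fell by 0.36 (SE of 0.0744, adjusted p = 0.00109) in Mx1-Cre and was not called in P95H (log2 fold change -0.16, SE of 0.0744, adjusted p = 0.0992). Mios and Wdr24, the other subunits of GATOR2, were not called in either genotype.

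GATOR1 switches RAGA and RAGB off when amino acids are short. Nprl3 (ENSMUSG00000020289, chromosome 11, 32225628 to 32267707, minus strand) had values of 24.9, 18.8, 25.2, 23.3 and 26.3 in P95H PHZ libraries, against 22.4, 25.3, 23.8, 26.7 and 22.6 in P95H PBS libraries. Values in Mx1-Cre libraries were 21.8, 17.1, 17.0, 21.1 and 18.8 after PHZ, against 22.5, 24.1, 26.7, 22.6 and 20.4 after PBS. Both pairs of groups overlapped, with 3 Mx1-Cre PHZ libraries below every PBS library. Nprl3 fell by 0.27 (SE of 0.0892, adjusted p = 0.0262) in Mx1-Cre and was not called in P95H (log2 fold change -0.03, SE of 0.0892, adjusted p = 0.819). The Nprl3 call in Mx1-Cre ended with the authors' scaling factor divided out, with no filter on low values and with the granulocyte and monocyte marker mean as a covariate (adjusted p = 0.0528 to 0.0946), and also without any 1 of Mx1-Cre PHZ replicates 2 and 3 and Mx1-Cre PBS replicates 2 and 3 (adjusted p = 0.0528 to 0.0799), with a log2 fold change of -0.24 under the marker covariate. Nprl3 lies beside the alpha-globin genes, whose enhancers sit in its introns in mouse. Hba-a1 starts 15804 bases from position 32267707, where Nprl3, on the minus strand, begins. Nprl3 also overlaps Mpg (mean 18.2) on the opposite strand, so its values are uncertain. Depdc5 and Nprl2, the other GATOR1 genes, were not called (P95H: 0.25 and -0.16; Mx1-Cre: 0.13 and -0.06). Depdc5 passed the threshold in P95H, higher after PHZ, under several alternatives, among them TMM factors (log2 fold change 0.27, adjusted p = 0.0469). It also passed without P95H PBS replicate 2, its highest PBS value there at 17.8 (log2 fold change 0.35, adjusted p = 0.00403).

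Folliculin acts with FNIP1 or FNIP2 to set the state of RAGC and RAGD. Flcn averaged 20.1 ± 1.40 in P95H PHZ and 24.1 ± 1.27 in P95H PBS, without overlap, and 19.9 ± 0.863 in Mx1-Cre PHZ and 22.4 ± 2.52 in Mx1-Cre PBS (SD, n = 5 each). Flcn fell by 0.25 (SE of 0.0697, adjusted p = 0.0087) in P95H and was not called in Mx1-Cre (log2 fold change -0.15, SE of 0.0697, adjusted p = 0.0975). The Flcn call in P95H ended with the authors' scaling factor divided out, with the granulocyte and monocyte marker mean as a covariate and without P95H PBS replicates 4 and 5 together (adjusted p = 0.0769 to 0.233), with a log2 fold change of -0.20 under the marker covariate. Fnip1 and Fnip2 were not called in either genotype.

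**Figure D4:**
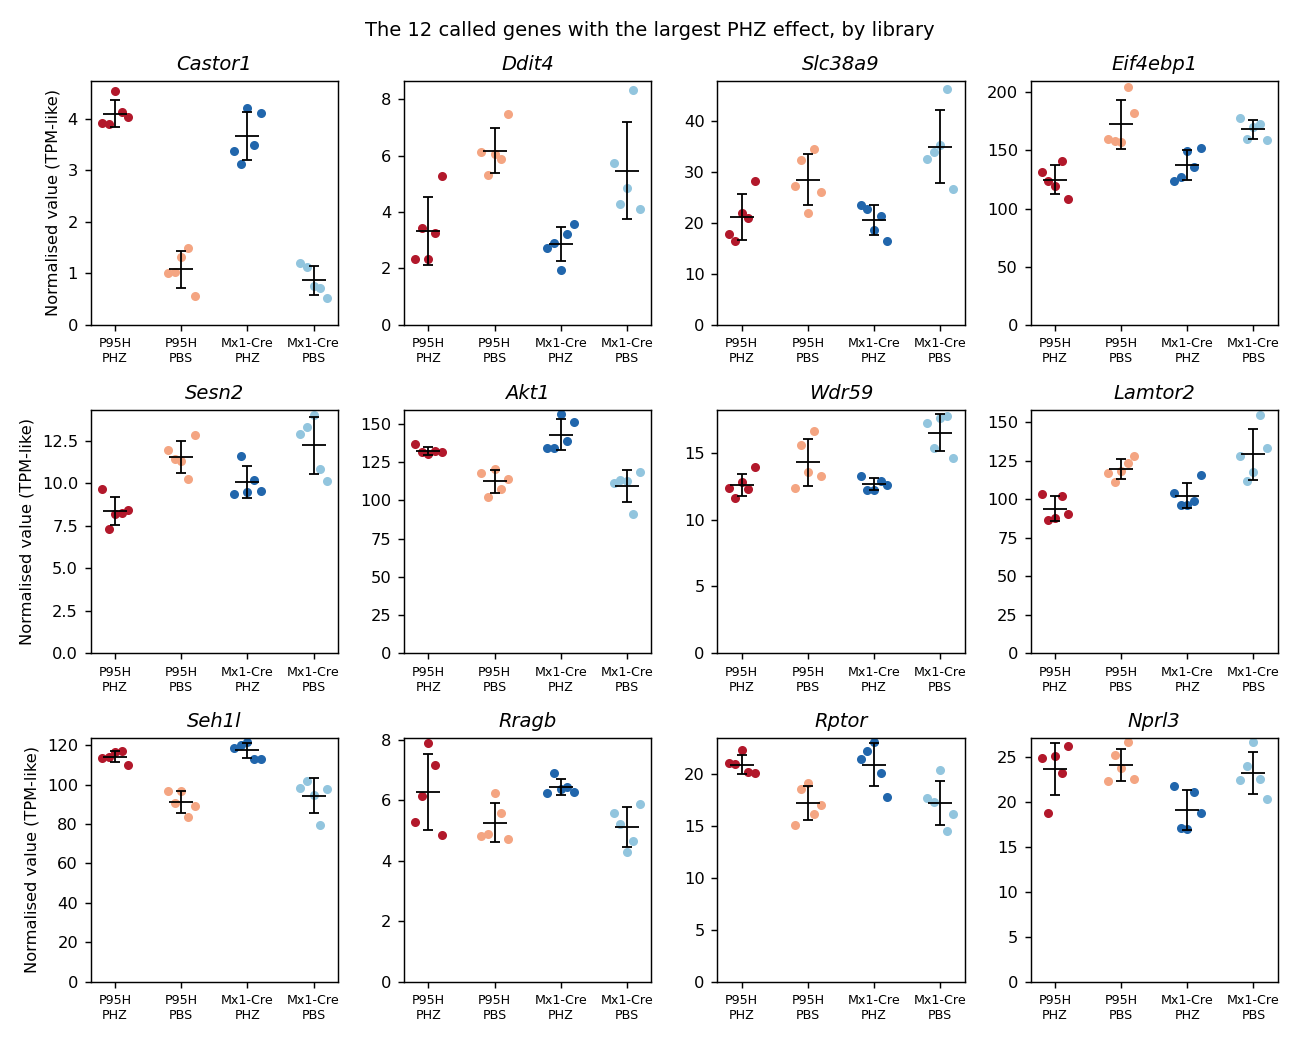
TPM-like values by library of the 12 genes with the largest PHZ effect among those called, with the mean and SD of each group of 5 as horizontal lines and bars; every axis starts at 0. Castor1, Akt1 and Seh1l are higher and Eif4ebp1 lower in all 10 PHZ libraries than in all 10 PBS libraries, while the groups of Nprl3 overlap.

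The comparison of P95H with Mx1-Cre asks whether the RNA levels of these genes differ with the mutation. The differences were small: over both treatments Rheb RNA was higher in P95H, and Wdr24 and Rps6kb2 RNA lower, each by less than 0.2 on the log2 scale. These 3 of 42 genes (7.14%) were called, against 10.5% of all genes, 1 higher (2.38%, against 2.66%) and 2 lower (4.76%, against 7.88%). Under PBS alone limma called 0 of the 42, against 1.48% of all genes (0.358% higher and 1.12% lower), and 4 had an unadjusted p under 0.05 (Rheb, Wdr24, Wdr59 and Rps6kb2). Under PHZ alone it called 0, against 5.47% of all genes (1.10% higher and 4.37% lower), and 8 had an unadjusted p under 0.05. How many of all genes had an unadjusted p under 0.05 was not counted. The 4 and 8 of 42 therefore have no share to be set against. No gene of the 42 had groups without overlap under PBS, where 0.891% of all genes lay apart and higher and 2.78% apart and lower (3.67% in all). Under PHZ 3 did (6.95% of all genes). Rheb lay higher in P95H, as did 1.57% of all genes, and Mapkap1 and Sec13 lay lower, as did 5.38%. The median log2 fold change of the 42 was -0.04 under PBS, -0.06 under PHZ and -0.07 over both, where that of all genes was -0.03, -0.05 and -0.04. Without P95H PBS replicate 3 or Mx1-Cre PBS replicate 2, 0 of the 42 genes were called over both treatments, and 1 was called without any 1 of P95H PHZ replicate 3, P95H PBS replicate 5, Mx1-Cre PHZ replicates 1 and 4 and Mx1-Cre PBS replicates 1 and 3. With TMM factors, and again under quantile normalization, 2 were higher over both treatments (Rheb and Nprl3) and 0 lower. Over all genes the split under PHZ was 120 higher and 476 lower, and 155 higher and 190 lower with TMM factors. Over both treatments it was 290 higher and 858 lower, and 405 higher and 420 lower with TMM factors. A missed threshold does not show equal levels: the median SE of a difference was 0.0725 within a treatment. Apart from the sum of CFU-E markers given above, the granulocyte and monocyte markers stand beside these differences: none of the 16 was called between genotypes, with a median log2 fold change of 0.89 under PBS and 0.03 under PHZ. Other markers were called. The CFU-E marker Car1, a carbonic anhydrase, fell in P95H by 0.59 (SE of 0.121, adjusted p = 0.00709) under PHZ and by 0.53 (SE of 0.0859, adjusted p = 0.000557) over both treatments. The megakaryocyte marker Gp9 rose in P95H by 0.54 (SE of 0.149, adjusted p = 0.0399) under PHZ and by 0.36 (SE of 0.105, adjusted p = 0.0316) over both. Ptprc, a marker of cells sorted out, fell by 0.31 (SE of 0.0884, adjusted p = 0.0289) in P95H over both. The Car1 calls held under every alternative run, while the Gp9 calls ended under some (adjusted p up to 0.106 under PHZ and 0.0769 over both), as did the Ptprc call (up to 0.0710). The part of these markers in the differences was not tested.

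RHEB is the small GTPase that turns mTORC1 on directly. Rheb (ENSMUSG00000028945, chromosome 5, 24802823 to 24842624, minus strand) had values of 77.9, 80.8, 84.0, 83.9 and 77.8 in P95H PHZ libraries, against 76.3, 77.2, 75.0, 74.2 and 76.2 in Mx1-Cre PHZ libraries. Under PBS the values were 83.8, 80.3, 81.6, 79.8 and 85.1 in P95H, against 70.9, 74.1, 77.2, 73.4 and 83.4 in Mx1-Cre. After PHZ all 5 P95H libraries lay above all 5 Mx1-Cre libraries, and under PBS a single Mx1-Cre library at 83.4 reached the P95H range. Rheb rose by 0.10 (SE of 0.0317, adjusted p = 0.0382) in P95H over both treatments, with 0.09 (SE of 0.0448, adjusted p = 0.24) under PHZ and 0.12 (SE of 0.0448, adjusted p = 0.225) under PBS. The Rheb call over both treatments ended with the granulocyte and monocyte marker mean as a covariate and without P95H PBS replicates 4 and 5 together (adjusted p = 0.0679 to 0.0836), and also without any 1 of P95H PHZ replicates 2, 3 and 4, P95H PBS replicates 1, 3 and 5, Mx1-Cre PHZ replicates 1, 3 and 4 and Mx1-Cre PBS replicates 1, 2, 3 and 4 (adjusted p = 0.0508 to 0.0793), with a log2 fold change of 0.10 under the marker covariate. Its inhibitors Tsc1, Tsc2 and Tbc1d7 were not called, with differences from -0.11 to -0.07 over both treatments.

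Wdr24 encodes a GATOR2 subunit. Wdr24 (ENSMUSG00000025737, chromosome 17, 25823627 to 25828730, plus strand) had values of 19.9, 18.9, 20, 21.5 and 18.8 in P95H PHZ libraries, against 22.5, 21.0, 21.4, 22.2 and 21.5 in Mx1-Cre PHZ libraries. With PBS the values were 21.6, 21.2, 19.5, 18.6 and 20.9 in P95H, against 23.2, 23.2, 22.4, 21.8 and 21.0 in Mx1-Cre. The groups overlapped under both treatments. Wdr24 fell by 0.13 (SE of 0.0373, adjusted p = 0.0308) over both treatments. It overlaps the RNA gene Gm26694 (mean 3.57) on the same strand, which its reads could share. The Wdr24 call over both treatments ended with TMM factors, under quantile normalization, with the authors' scaling factor divided out, with the granulocyte and monocyte marker mean as a covariate and without P95H PBS replicates 4 and 5 together (adjusted p = 0.0821 to 0.347), and also without any 1 of P95H PHZ replicates 2 and 5, P95H PBS replicates 3 and 4, Mx1-Cre PHZ replicates 1 and 4 and Mx1-Cre PBS replicates 1, 2 and 3 (adjusted p = 0.0505 to 0.06), with a log2 fold change of -0.11 under the marker covariate.

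Rps6kb2, whose library values are given above, was likewise lower in P95H. It averaged 31.1 ± 2.46 in P95H PHZ and 33.9 ± 1.31 in Mx1-Cre PHZ, and 34.0 ± 2.83 in P95H PBS and 38.6 ± 1.87 in Mx1-Cre PBS (SD, n = 5 each). Rps6kb2 fell by 0.15 (SE of 0.0429, adjusted p = 0.0273) over both treatments. The Rps6kb2 call over both treatments ended with TMM factors, under quantile normalization, with the authors' scaling factor divided out, with the granulocyte and monocyte marker mean as a covariate and without P95H PBS replicates 4 and 5 together (adjusted p = 0.0597 to 0.179), and also without any 1 of P95H PHZ replicate 3, P95H PBS replicates 3 and 5 and Mx1-Cre PBS replicate 2 (adjusted p = 0.0527 to 0.0554), with a log2 fold change of -0.14 under the marker covariate. Its opposite-strand neighbour Coro1b leaves these values uncertain as well.

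Mapkap1 encodes SIN1, a subunit that mTORC2 needs. Mapkap1 (ENSMUSG00000038696, chromosome 2, 34406771 to 34624950, plus strand) had values of 32.9, 31.5, 30.3, 29.3 and 30.6 in P95H PHZ libraries, against 34.9, 33.3, 35.7, 34.2 and 34.8 in Mx1-Cre PHZ libraries. With PBS they were 30.1, 31.0, 34.0, 32.4 and 31.8 in P95H, against 36.6, 34.8, 34.3, 30.1 and 31.0 in Mx1-Cre. All 5 P95H PHZ libraries lay below all 5 Mx1-Cre PHZ libraries, and the PBS groups overlapped. Mapkap1 missed the threshold over both treatments (log2 fold change -0.11, SE of 0.0380, adjusted p = 0.0647) and under PHZ (log2 fold change -0.16, SE of 0.0537, adjusted p = 0.085). Nprl3, with values in every library given above, came nearest to a call under PHZ (log2 fold change 0.29, SE of 0.0892, adjusted p = 0.0591). It passed the threshold there with TMM factors (log2 fold change 0.34, adjusted p = 0.0339), under quantile normalization (log2 fold change 0.37, adjusted p = 0.0201), without P95H PHZ replicate 2 (adjusted p = 0.0155) and without Mx1-Cre PHZ replicate 1 (adjusted p = 0.0464).

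**Figure D5:**
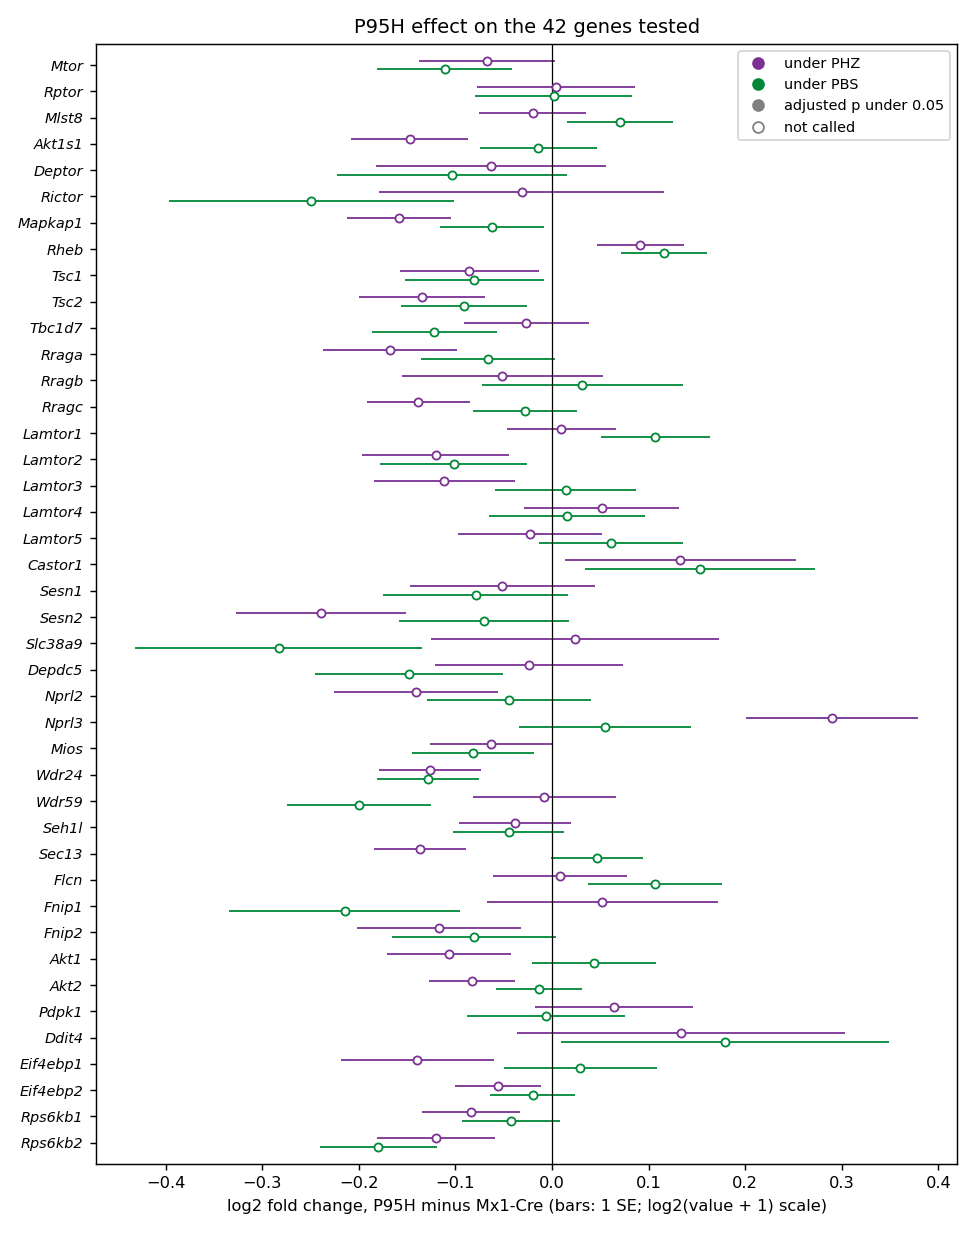
Log2 fold changes, P95H minus Mx1-Cre on the log2(value + 1) scale, with bars of 1 SE, for the 42 genes tested under PHZ and under PBS. No point has an adjusted p under 0.05, and nearly all lie within 0.3 of 0; Rheb lies right of 0 and Wdr24 and Rps6kb2 left of it under both treatments.

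Whether PHZ acted differently in P95H and Mx1-Cre was tested as the difference between both PHZ effects. limma called 0 of the 42 genes, and 0% of all 10890 genes. At an unadjusted p under 0.05 it picked 1 of the 42, Sec13 (difference -0.18, SE of 0.0675, adjusted p = 0.798). The share of all genes at that unadjusted threshold was not counted. The largest differences among the named genes were 0.31 (SE of 0.210, adjusted p = 0.798) for Slc38a9 and 0.24 (SE of 0.126, adjusted p = 0.798) for Nprl3. The SE of such a difference had a median of 0.103 over the 42 genes, so that differences of the size seen here could not be told from 0.

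The wider pathway was followed in 8 lists of 84 further genes, of which 78 passed the filter. After PHZ, 10 rose and 12 fell in P95H (30.2% of all genes were called), and 13 rose and 10 fell in Mx1-Cre (31.9%). Their median log2 fold change was -0.01 in P95H and -0.02 in Mx1-Cre. In the list of PI3K and receptor genes, 4 rose and 4 fell of 16 tested in P95H, and 4 rose and 3 fell in Mx1-Cre. Pik3cb and Pik3cd, catalytic subunits of PI3K, the lipid kinase upstream of AKT, rose in both genotypes. Pik3cb rose by 0.76 (SE of 0.108, adjusted p = 2e-05) in P95H and rose by 0.85 (SE of 0.108, adjusted p = 6.27e-06) in Mx1-Cre. Irs2, an adaptor of insulin and growth factor receptors, rose by 1.45 (SE of 0.303, adjusted p = 0.00145) in P95H and rose by 1.28 (SE of 0.303, adjusted p = 0.00383) in Mx1-Cre. Grb10, an adaptor that restrains such receptors, fell by 0.65 (SE of 0.174, adjusted p = 0.00753) in P95H and fell by 0.55 (SE of 0.174, adjusted p = 0.021) in Mx1-Cre. The Irs2 call in P95H ended with the granulocyte and monocyte marker mean as a covariate (adjusted p = 0.104), with a log2 fold change of 1.16 under the marker covariate. The Grb10 call in Mx1-Cre ended without Mx1-Cre PHZ replicate 4 (adjusted p = 0.0586).

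Downstream translation genes moved in both directions, with 2 higher and 1 lower of 10 in P95H, and 4 higher and 2 lower in Mx1-Cre. Over all genes tested, 30.2% were called in P95H and 31.9% in Mx1-Cre. Eif4g1, the scaffold that eIF4E-binding proteins compete with, rose by 0.35 (SE of 0.0709, adjusted p = 0.000813) in P95H and rose by 0.45 (SE of 0.0709, adjusted p = 7.51e-05) in Mx1-Cre. Pdcd4, an S6 kinase target that blocks the helicase eIF4A, fell by 0.59 (SE of 0.173, adjusted p = 0.0139) in P95H and fell by 0.69 (SE of 0.173, adjusted p = 0.00524) in Mx1-Cre. The Eif4g1 call in P95H ended with the granulocyte and monocyte marker mean as a covariate (adjusted p = 0.0807), with a log2 fold change of 0.28 under the marker covariate. The Pdcd4 call in P95H ended with the granulocyte and monocyte marker mean as a covariate and without P95H PBS replicates 4 and 5 together (adjusted p = 0.109 to 0.592), with a log2 fold change of -0.22 under the marker covariate. Among other sensors, 2 rose and 1 fell of 11 in P95H, and 1 rose and 3 fell in Mx1-Cre. Lars, the leucyl-tRNA synthetase, rose by 0.32 (SE of 0.0626, adjusted p = 0.000573) in P95H and rose by 0.42 (SE of 0.0626, adjusted p = 3.77e-05) in Mx1-Cre, while Klhl22, an adaptor of DEPDC5 breakdown in human cells, fell by 0.53 (SE of 0.102, adjusted p = 0.000453) in P95H and fell by 0.44 (SE of 0.102, adjusted p = 0.00242) in Mx1-Cre. The Klhl22 call in P95H ended with the granulocyte and monocyte marker mean as a covariate (adjusted p = 0.178), with a log2 fold change of -0.28 under the marker covariate.

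Of the 15 V-ATPase genes, which acidify the lysosome, 1 rose and 3 fell in P95H, and 2 rose and 0 fell in Mx1-Cre. Over all genes tested, 12.6% were called higher and 17.7% lower in P95H, and 17.0% and 14.9% in Mx1-Cre. Of 7 genes around the lysosomal transcription factors TFEB and TFE3, 0 rose and 2 fell in P95H, and 1 rose and 1 fell in Mx1-Cre, with Tfe3 -0.37 (SE of 0.0743, adjusted p = 0.000788) in P95H and -0.38 (SE of 0.0743, adjusted p = 0.000608) in Mx1-Cre. Of 8 AMPK and LKB1 genes 1, Prkag1, rose in both. Of 8 autophagy genes 1, Ulk2, fell in both. The Tfe3 call in P95H ended with the granulocyte and monocyte marker mean as a covariate (adjusted p = 0.197), with a log2 fold change of -0.20 under the marker covariate. The Ulk2 call in P95H ended with the authors' scaling factor divided out and with the granulocyte and monocyte marker mean as a covariate (adjusted p = 0.0535 to 0.301), with a log2 fold change of -0.27 under the marker covariate. All 4 V-ATPase calls in P95H and both in Mx1-Cre ended with that covariate (adjusted p = 0.0751 to 0.439 in P95H, and 0.05003 and 0.0696 in Mx1-Cre).

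Between genotypes, 0 of the 78 rose and 2 fell in P95H under PBS (1.48% of all genes), and 1 rose and 4 fell under PHZ (5.47%). Over both treatments 1 rose and 5 fell (10.5%). Tti1, part of the TTT complex that helps mTOR and related kinases fold, had values of 19.6, 17.6, 19.7, 17.7 and 19.4 in P95H PHZ libraries, against 27.4, 25.0, 24.6, 25.1 and 20.8 in Mx1-Cre PHZ libraries. Under PBS it had 18.2, 21.1, 22.0, 16.2 and 17.1 in P95H, against 25.3, 22.5, 27.2, 22.7 and 23.0 in Mx1-Cre. Tti1 fell by 0.36 (SE of 0.0819, adjusted p = 0.0109) under PHZ and fell by 0.34 (SE of 0.0819, adjusted p = 0.0369) under PBS, with no overlap between genotypes under either treatment. Strada, the pseudokinase that activates LKB1 upstream of AMPK, fell by 0.26 (SE of 0.0547, adjusted p = 0.00779) under PHZ and fell by 0.28 (SE of 0.0547, adjusted p = 0.00919) under PBS, also with no overlap. Under PHZ, Pik3r2, a regulatory subunit of PI3K, fell by 0.26 (SE of 0.0537, adjusted p = 0.00756) and Becn1, an autophagy gene, fell by 0.15 (SE of 0.0393, adjusted p = 0.0329), while Sgk1, a kinase downstream of mTORC2, rose by 0.46 (SE of 0.134, adjusted p = 0.049). The Tti1 call under PBS ended with TMM factors, under quantile normalization, with the authors' scaling factor divided out, with no filter on low values, with the 2 groups fitted alone, with the granulocyte and monocyte marker mean as a covariate and without P95H PBS replicates 4 and 5 together (adjusted p = 0.0646 to 0.283), and also without any 1 of P95H PBS replicates 1, 4 and 5, Mx1-Cre PHZ replicate 4 and Mx1-Cre PBS replicates 1 and 3 (adjusted p = 0.0502 to 0.12), with a log2 fold change of -0.26 under the marker covariate. The Strada call under PBS ended under quantile normalization (adjusted p = 0.0534). The Tti1, Strada, Pik3r2, Becn1 and Sgk1 calls under PHZ all ended under at least 1 alternative, up to an adjusted p of 0.103, 0.112, 0.0919, 0.469 and 0.121. Over both treatments the Tti1, Strada and Pik3r2 calls held under all 33 alternatives, up to an adjusted p of 0.00552, 0.00273 and 0.0330. The Becn1, Klhl22 and Sgk1 calls over both ended under at least 1 alternative, up to 0.117, 0.221 and 0.0913.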

How the data were processed

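What was measured is gene expression in CFU-E in 20 libraries, each taken as 1 mouse from the code in its name. The table that the authors deposited gives a normalised signal for 37748 entries. The submitters' processing notes name TopHat, TopHat2 2.0.8b, Bowtie and RSEM 1.2.4 as tools, and both mouse (mm10, GRCm38) and human (hg19, GRCh37) builds, without saying what each was used for. In each library the deposited signal is a whole multiple of 0.01 times 1 factor (100% of values within 0.01 of a step, factors 0.940 to 1.10), so it has the form of TPM times a scaling factor. The sources used here do not say how the factors were made or whether strand was used. No read counts were at hand, so the depth behind a value is unknown and no interval that needs it is given.

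Symbols and positions came from GENCODE vM21 (GRCm38), and promoter windows from RefSeq (GRCm38.p6). Genes at 1 or more in 5 or more libraries were kept (10890). limma 3.58.1 in R 4.3.3 fitted log2(value + 1) with 1 mean per group over all 20 libraries and trended, robust moderation, and its two-sided p-values were adjusted by the Benjamini-Hochberg method over all genes kept, with a threshold of 0.05. The fit was tested on simulated data. Each p-value sets a difference against the spread between these libraries, estimated over all 4 groups. Alternatives were TMM factors (a trimmed mean of log ratios, without precision weights, which need counts), quantile normalization, the authors' factor divided out, a pseudocount of 0.1 or 5, a low-value filter at 5 or none at all, the compared groups alone, no trend or robust moderation, library weights, the granulocyte and monocyte marker mean or Xist as a covariate, the replicate number as a block, and each library, or P95H PBS replicates 4 and 5, left out.

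The 44 genes, the lists and the alternatives were chosen with earlier results of these data known. Values in every library are given for genes called between genotypes or in the interaction, for the 12 with the largest absolute PHZ effect among those called, and for the 4 with the smallest p between genotypes over both treatments. From each further list, up to 4 called genes with the largest absolute difference could be named. The Eif4ebp2, Flcn and Mtor means, the Tti1 library values, Sgk1 and Pik3r2, and the Rraga and Rragc promoters stand outside this rule and were chosen after values were seen. Figures were drawn with Python 3.11.15 and matplotlib 3.10.9.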

Additional observations from a re-analysis of the deposited data

Results flagged for a closer look

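In groups of 5 libraries, 1 library stood apart from the other 4 by Dixon's criterion in 8 of 168 groups of values (42 genes in 4 groups), where chance gives about 1 in 20, or 8.4. Akt1 was 137 in P95H PHZ replicate 1, above 130.2 to 132 in the others. It was 91.1 in Mx1-Cre PBS replicate 4, below 111 to 118 in the others. Rragb was 6.90 in Mx1-Cre PHZ replicate 2, above 6.24 to 6.43 in the others. Lamtor5 was 49.2 in Mx1-Cre PHZ replicate 1, below 58.1 to 59.2 in the others. Rps6kb1 was 43.1 in Mx1-Cre PHZ replicate 5, below 47.7 to 49.1 in the others. Depdc5 was 17.8 in P95H PBS replicate 2, above 12 to 13.2 in the others. Lamtor3 was 53.1 in Mx1-Cre PBS replicate 4, below 57.6 to 59.4 in the others. Tbc1d7 was 10.9 in Mx1-Cre PBS replicate 3, below 11.6 to 11.8 in the others. No library held more than 2 of the 8.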

How the results depend on the processing

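Of the 32 calls among the 42 genes, 12 held under every alternative run. Over 1083 comparisons of a call with an alternative, 966 kept the call, 117 lost it and 0 changed sign. For PHZ in P95H the 11 calls became 3 with the granulocyte and monocyte marker mean as a covariate and 10 to 13 with 1 library left out, and all genes called went to 1007 with that covariate, and to 2100 without P95H PBS replicates 4 and 5. For PHZ in Mx1-Cre the 18 calls became 11 to 19 with 1 library left out, the lowest without Mx1-Cre PHZ replicate 3. P95H against Mx1-Cre under PBS had 0 calls, 2 with library weights (Wdr59 and Rps6kb2, both lower), and 0 to 0 with 1 library left out. Under PHZ there were 0 calls, 1 with TMM factors, 1 under quantile normalization, and 0 to 1 with 1 library left out, in each case Nprl3, higher in P95H. Over both treatments the 3 calls became 1 with the authors' scaling factor divided out, 7 with library weights, 0 with the marker covariate, 0 without P95H PBS replicates 4 and 5, and 0 to 4 with 1 library left out. The interaction had 0 calls throughout, 0 to 0 with 1 library left out. The cause of these changes was not tested.

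Mtor passed the threshold in P95H under several settings, among them TMM factors (log2 fold change 0.20, adjusted p = 0.0346). Over all genes, calls under PBS between genotypes went from 161 to 78 with the compared groups alone, 538 with library weights, 98 without P95H PBS replicates 4 and 5, 90 without P95H PBS replicate 5 and 92 without Mx1-Cre PBS replicate 1 or 3. Under PHZ they went from 596 to 345 with TMM factors, 292 under quantile normalization, 277 with the authors' factor divided out, 345 with the compared groups alone, 331 without P95H PHZ replicate 3 and 319 without Mx1-Cre PHZ replicate 3. Over both they went from 1148 to 1846 with library weights, and the interaction had 1 with no filter. Castor1 could not be fitted with a filter at 5, and the contrasts over both treatments and the interaction could not be fitted with the compared groups alone. Of 58 calls among the further pathway genes, 24 held under every alternative and 0 changed sign. Among the named markers of other cells, Fcgr3 in P95H, lower after PHZ (log2 fold change -0.62), turned to 0.23 with the marker covariate, and the cause was not tested.

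The titles number the replicates 1 to 5 in each group. Over 30 pairs of same-numbered libraries, the correlation of their deviations from the group means ran from -0.31 to 0.44, was over 0.1 in 13, and was the highest with the own number in 10. The rate that chance gives was not computed, so these values do not decide whether the numbers pair the libraries. With the replicate number as a block the calls were 13 for PHZ in P95H, 18 for PHZ in Mx1-Cre, 0 under PBS, 0 under PHZ, 3 over both and 0 for the interaction, and Rragb in Mx1-Cre was the only call lost (adjusted p = 0.0512).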
